A study of Mus musculus with 148 samples.

Results

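Migratory dendritic cells (migDCs) were taken as the wells that the deposited cell table places among dendritic cells and annotates as migDC. They numbered 117 of 943 dendritic cells (DCs) and of 23425 annotated immune cells, beside 254 conventional type 1 DCs (cDC1), 499 conventional type 2 DCs (cDC2) and 73 plasmacytoid DCs (pDC). The annotation came from clustering these same profiles, so the genes that set migDCs apart from other DCs are given as a description with no test.

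Migratory DCs are the mature state that conventional DCs enter after taking up antigen. They leave the tissue through lymphatics toward the draining lymph node, guided by the receptor Ccr7, and there present peptides to T cells together with costimulatory molecules and cytokines. Maturation is known to involve NF-kB signaling, a rebuilt actin cytoskeleton, a loss of further antigen uptake and the secretion of chemokines that attract T cells.

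The cells came from female PA-GFP C57/b6 mice, whose cells all carry a green fluorescent protein that lights up only after laser exposure. EO771-tdTomato breast cancer cells, a red fluorescent mouse line, were injected into the mammary gland at 8 weeks of age, whereas control mice received no tumor. Tumors were resected 3 weeks later, except in the mice that gave Pre-MET and Primary samples, which were taken before resection. Single immune cells were sorted into plates and their 3' RNA ends counted as unique molecular identifiers (UMIs), with 1 sample here being the cells of 1 mouse in 1 tissue status. The statuses were Normal (whole lungs of uninjected mice, 3 samples), Pre-MET (whole lungs of tumor-bearing mice before metastasis, 3), Relapse-free (whole lungs without metastasis after resection, 6), Distal normal tissue (lung sections away from a metastasis, 14), MET (sections with a metastasis, 13), MET Core (13) and MET Invasive margin (7), and Primary (the primary tumor, 4). Live CD31-CD45+ cells were sorted in all statuses but the MET Core and MET Invasive margin, where photoactivated CD31-GFP+ cells were taken (1 of the 13 MET Core samples was gated on CD45 as well), and part of the Relapse-free plates, which were also gated on the photoactivated signal. The photoactivated region is labeled NON-MET in 1 MET Invasive margin sample, that of mouse 17, and ADJ in the other 6. Both gates leave out CD31+ cells, and the sort sets which cells the shares are drawn from.

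Most migDCs came from few samples. Primary tumors gave 49 of them, MET 22, MET Core 16, Relapse-free 12, Normal 7, MET Invasive margin 5, Distal normal tissue 5 and Pre-MET 1. Their median depth was 2001 UMIs, but it was 4298 UMIs in primary tumors (49 cells), 1272 in metastatic lesions (MET, MET Core and MET Invasive margin, 43 cells) and 946 in lesion-free lung (Normal, Pre-MET, Relapse-free and Distal normal tissue, 25 cells). The same difference in depth held for all immune cells, with a median of 3148 UMIs in Primary and 1013 to 1139 UMIs in the other statuses.

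The levels of the label's markers were first set beside those of the other populations. The paper names these cells by Ccr7, so this is a description and not a test of the label. Of the 397417 UMIs of migDCs, 260628 came from primary tumors. Among 27 annotated populations, each summed over all its cells, migDCs held the highest level of Ccr7 (4313 CPM, UMI counts scaled to the same total in every population), of Fscn1 (1656 CPM) and of Ccl22 (2036 CPM). Ccr7 is the lymph node homing receptor, Fscn1 the actin-bundling protein of dendrites, and Ccl22 a ligand of Ccr4 on T cells. The next population held 694 CPM of Ccr7 (B cells), 14.8 CPM of Fscn1 (B cells) and 745 CPM of Ccl22 (cDC1). Cacnb3, a calcium channel subunit, stood at 654 CPM against 28.5 in cDC1, and Il12b, the shared subunit of interleukin 12 and 23, at 1615 CPM against 178 in cDC1. The migDC level of Ccl17, the other Ccr4 ligand, was 908 CPM and the second highest, below 5014 CPM in cDC1. Ccl19, a Ccr7 ligand, had 0 UMIs in migDCs.

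Single cells carried the markers unevenly. UMIs of all 3 markers were seen in 42 migDCs, of 2 in 40, of 1 in 18 and of none in 17. The 17 without a marker had a median of 650 UMIs, against 2718.5 UMIs in the other 100. At least 2 markers were detected in 70.1% of migDCs, in 5.51% of cDC1, in 0.601% of cDC2 and in no pDC. These shares depend on depth, so each cell was also thinned to 500 UMIs, whereupon 44.4% of migDCs and 2.36% of cDC1 held at least 2 markers.

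After thinning, Ccr7 was detected in 62.4% of migDCs (95% exact binomial interval 53.0 to 71.2%), against 4.33% of cDC1, 1.80% of cDC2 and 0.170% of monocytes. Fscn1 was detected in 40.2% of migDCs (31.2 to 49.6%), 0.394% of cDC1 and no cDC2, and Ccl22 in 33.3% (24.9 to 42.6%), 9.06% of cDC1 and 0.401% of cDC2. Such intervals cover counting error only, and each share is that of 1 random draw of UMIs. Averaged over all possible draws, the expected shares of migDCs were 62.9% for Ccr7, 38.9% for Fscn1, 33.4% for Ccl22 and 70.0% for Ccl5. Pooled over cells, the 3 markers were least frequent in lesion-free lung, where mice gave 1 to 7 migDCs each. The migDCs of mice 2, 7, 11 and 18 there held no UMI of any marker. Such pooled shares carry no spread between mice, and their difference was not tested. In primary tumors, lesions and lesion-free lung the expected shares were 69.9%, 64.1% and 47.2% for Ccr7. They were 46.5%, 41.2% and 20.2% for Fscn1, and 36.0%, 33.9% and 27.6% for Ccl22. Ccl5, a chemokine of T and NK cells, was found in 75.2% of migDCs in the draw shown and 76.7% of CD8 T cells, but in 10.6% of cDC1, 8.82% of cDC2 and 9.05% of monocytes. The T cell receptor gene Cd3e had UMIs in 1 migDC of 117. The macrophage and monocyte gene Lyz2 was detected in 8.55% of migDCs and 95% of monocytes.

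**Figure D1:**
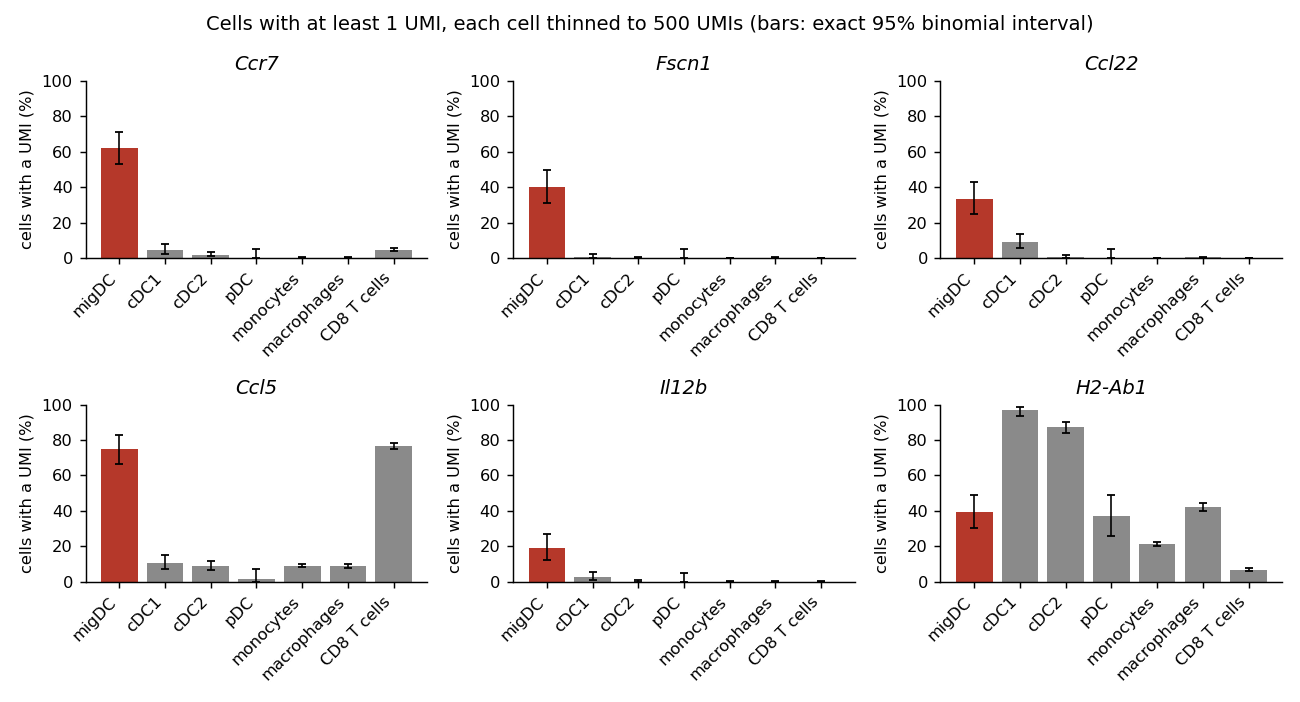
Percent of cells with at least 1 UMI of each gene, by annotated population, after every cell was thinned to 500 UMIs, with exact 95% binomial intervals. Ccr7 reached 62.4% of migDCs and 4.33% of cDC1, whereas H2-Ab1 reached 39.3% of migDCs and 96.9% of cDC1.

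UMIs of short sets of cDC1 and cDC2 genes were counted in single migDCs. UMIs of 7 cDC1 genes (Xcr1, Clec9a, Naaa, Wdfy4, Cadm1, Snx22 and Gcsam) alone were seen in 9 migDCs, of 7 cDC2 genes (Cd209a, Sirpa, Clec10a, Mgl2, Cd209d, Clec4b1 and Irf4) alone in 15, both in 0 and neither in 93. These are subsets of the longer cDC1 and cDC2 lists used for the profile. They leave out the cDC1 gene Irf8, which had UMIs in 52 of 117 migDCs (44.4%). In the sums described below, the whole cDC1 list had a mean of 1343 CPM in migDCs and 1437 CPM in the other DCs. The whole cDC2 list had 2082 and 4563 CPM. How many cDC1 or cDC2 held the same 7 genes was not counted. Naaa, the cDC1 gene used by the study, and Cd209a, used for cDC2, were in 22.8% of cDC1 and 20.2% of cDC2 respectively after thinning, and in no migDC. A count of 0 in 117 cells allows a share of up to 3.10% (exact binomial 95% interval) and limits only cells with a UMI, not cells expressing the gene.

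In the genome (mm10, GENCODE vM21), Ccr7 lies on chromosome 11 (99144196 to 99155077, minus strand), Fscn1 on chromosome 5 (142960343 to 142973185, plus strand) and Ccl22 on chromosome 8 (94745590 to 94751699, plus strand). Ccl22 neighbors Ccl17 on the same strand (94810453 to 94812036). Because maturation involves NF-kB, the 250 bases upstream of each RefSeq gene start (GRCm38.p6) were searched on both strands for GGGNNNNNCC, a loose form of the NF-kB site. The promoters of the marker genes Fscn1 and Ccl22 are shown from the annotated transcript start backward, with matches in capitals: chr5:142960105-142960342 for Fscn1 and chr8:94745434-94745589 for Ccl22, both on the plus strand. Ccr7 had no entry.
Fscn1: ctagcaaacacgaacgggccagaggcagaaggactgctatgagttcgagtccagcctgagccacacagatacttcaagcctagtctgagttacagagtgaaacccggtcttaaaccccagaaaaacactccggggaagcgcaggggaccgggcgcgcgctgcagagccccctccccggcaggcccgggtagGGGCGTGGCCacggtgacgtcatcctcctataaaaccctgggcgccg
Ccl22: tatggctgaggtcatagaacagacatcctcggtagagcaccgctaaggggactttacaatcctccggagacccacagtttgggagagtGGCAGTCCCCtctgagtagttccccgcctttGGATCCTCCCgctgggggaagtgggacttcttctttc

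In the stretches shown, Fscn1 held 1 match, which starts 59 bases before the RefSeq start, and Ccl22 held 2, which start 162 and 131 bases before it. The whole searched window of Fscn1 held a further match, 20 bases before the RefSeq start and past the end of the stretch shown. The motif is common: it stood in 13148 of 27025 promoters of that length (48.7%). It was in 27 of 40 promoters (67.5%) of genes higher in migDCs in every sample described and in 105 of 159 (66.0%) of the lower ones, so it was about as frequent on both sides.

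How frequent migDCs were in each tissue was compared over samples, as a percent of immune cells. In primary tumors they formed 2.48%, 2.99%, 3.05% and 3.82% of immune cells in the mice numbered 10, 9, 8 and 38. In MET Core samples the share reached at most 1.58% and in MET samples at most 1.59%, so that no metastatic sample overlapped the primary tumors. The means were 3.08% ± 0.557 in Primary (SD, n = 4), 0.453% ± 0.493 in MET Core (n = 13) and 0.538% ± 0.604 in MET (n = 13). Both differences from Primary gave an exact two-sided permutation p of 0.00042, the smallest possible here, and an adjusted p of 0.00168 over 8 comparisons (Benjamini-Hochberg). These samples were not taken in equal batches: the sequencing batch SB132 held only primary tumors (3 samples), and in batch SB128 the single primary tumor stood at 3.05% against a mean of 0.741% in 4 MET samples (at most 1.34%). By the paper's methods, lungs and tumors were also dissociated with different machine programs. Organ and dissociation therefore cannot be told apart in any comparison with Primary, nor can time after injection in those with metastases. In such cell counts, fewer migDCs and less RNA per migDC cannot be told apart, since a cell had to pass 500 UMIs to be counted.

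Lung with a metastasis held more migDCs than lung away from it. The mean was 0.538% ± 0.604 in MET (n = 13, migDCs seen in 7 samples) and 0.0609% ± 0.121 in Distal normal tissue (n = 14, seen in 3 samples), a difference of 0.477 percentage points (permutation p = 0.00891, adjusted p = 0.0238). In the 13 mice that gave both tissues the share was higher in MET in 7, lower in 2 and equal in 4 (exact sign-flip permutation p = 0.0273). The direction was not the same in every batch: within SB124 the mean was 1.16% in 4 MET samples and 0% in 4 Distal normal samples, whereas within SB118 it was 0.0322% (6 samples) and 0.039% (7 samples). On a log2 scale the difference was 0.67 and no longer passed (permutation p = 0.161).

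Within lung, the remaining comparisons were smaller or rested on few cells. Pre-MET lungs, which gave a single migDC, held 0.0686% ± 0.119 (n = 3), below Primary (exact permutation p = 0.0286, the smallest possible, adjusted p = 0.0457), and Normal lungs held 0.357% ± 0.276 (n = 3; exact permutation p = 0.2 against Pre-MET). In the 3 mice that gave both a primary tumor and Pre-MET lungs the difference was 2.77 percentage points, where 3 pairs allow no exact permutation p below 0.25. Relapse-free lungs held 0.288% ± 0.299 (n = 6; exact permutation p = 0.571 against Normal), and MET Invasive margin 0.251% ± 0.398 (n = 7; exact permutation p = 0.37 against MET Core). MET Core minus MET Invasive margin was -0.446 percentage points with cells of at least 1000 UMIs, and 0.0085 in the 6 mice with both regions. Distal normal tissue lay 0.296 percentage points below Normal (exact permutation p = 0.0147, adjusted p = 0.0294). The difference was -0.14 without the Normal sample of mouse 3 (exact permutation p = 0.0833), and all Normal samples came from 1 sequencing batch, so batch and group cannot be told apart. On a log2 scale Distal normal tissue minus Normal was -0.157 and did not pass (exact permutation p = 0.803).

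**Figure D2:**
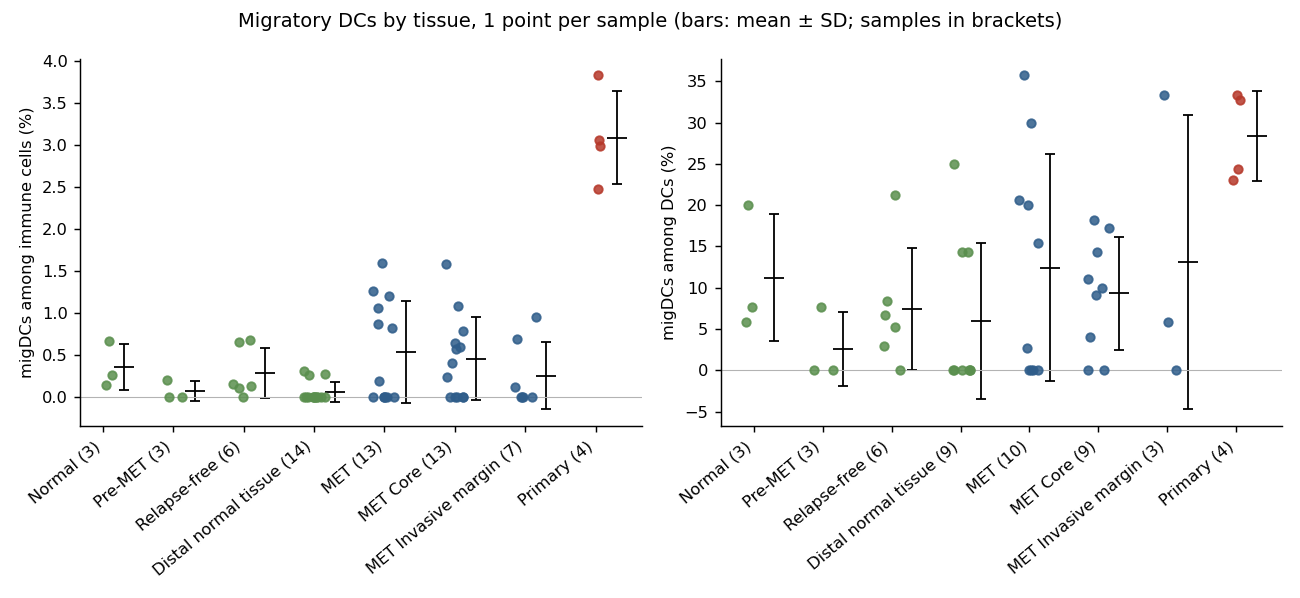
Share of migDCs in each sample, as a percent of immune cells and as a percent of DCs, by tissue status; points are samples (1 mouse in 1 status) and bars the mean and SD. The 4 primary tumors lie between 2.48% and 3.82% of immune cells, above every MET and MET Core sample.

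As a share of DCs the order was partly kept. In samples with at least 5 DCs, migDCs were 28.4% ± 5.42 of DCs in primary tumors (n = 4, 23.1 to 33.3%) and 9.33% ± 6.81 in MET Core (n = 9; exact permutation p = 0.0014, adjusted p = 0.0112 over 8 comparisons). MET samples held 12.4% ± 13.7 (n = 10), a difference from Primary that did not pass after adjustment (exact permutation p = 0.047, adjusted p = 0.125). The difference between Primary and Pre-MET lungs (2.56% ± 4.44, n = 3) did not pass either (exact permutation p = 0.0286, adjusted p = 0.114). In MET Invasive margin the mean was 13.1% ± 17.8 (n = 3), here above MET Core (exact permutation p = 0.6). MET and Distal normal tissue (5.95% ± 9.45, n = 9) did not differ beyond their spread (permutation p = 0.258), and in the 7 mice with both the mean difference was -0.171 percentage points.

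The migDC profile was then set against that of the other DCs (cDC1, cDC2 and pDC summed) of the same mouse and tissue class. For this, UMIs were summed over cells, and 9 sums held at least 5 migDCs and 5 other DCs: primary tumors of mice 8, 9, 10 and 38, lesions of mice 30, 31, 32 and 36, and lesion-free lung of mouse 6. They hold 5 to 20 migDCs and 7324 to 114561 UMIs each, against 20 to 41 other DCs and 42327 to 323331 UMIs. Of 8426 genes with at least 20 UMIs, 61 were higher in migDCs in all 9 sums (0.724%) and 231 were lower in all 9 (2.74%). The 20 UMIs were counted over migDCs and other DCs together, so a gene could pass with 0 UMIs in migDCs. With every cell thinned to 500 UMIs, 1631 genes kept 20 UMIs and 21 were higher and 62 lower in all 9 sums (1.29% and 3.80%). Of the 61 genes, 56 could be measured there, of which 18 were still higher in all 9 sums and 3 had a mean difference below 0. With a limit of 3 migDCs, 15 genes were higher and 85 lower in all of 13 sums, and with cells of at least 1000 UMIs, 140 and 518 in all of 7 sums. A difference is given as the mean over the 9 sums of log2((migDC CPM + 10)/(other DC CPM + 10)), where the pseudocount shrinks the difference of genes with low counts. Its median over all genes was -0.68, or -1.72 with a pseudocount of 1 in place of 10. The migDC sums held fewer UMIs than those of other DCs. A gene with few UMIs can therefore be at 0 in a shallow migDC sum and count as lower there. How far this sets the 231 lower genes and the medians below 0 was not tested. List medians should be read against -0.68, and list counts against the shares over all genes (0.724% higher, 2.74% lower). All lists were chosen with earlier results of these data known, so their counts are no independent support.

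Ccr7 and Fscn1, both markers of the label, led the profile. Ccr7 ranged from 1229 to 12363 CPM in migDCs (median 3527) and from 0 to 202 CPM in the other DCs, a log2 difference of 6.59 ± 1.98 (SD, n = 9). Fscn1 ranged from 355 to 2566 CPM (median 1130) against at most 25.7 CPM, with a log2 difference of 6.42 ± 0.85. For both genes every migDC sum lay above every sum of other DCs. The difference of Ccr7 was 5.49 against cDC1 alone and 7.78 against cDC2 alone. Here and below, values against cDC1 alone rest on the 6 sums with at least 5 cDC1, and those against cDC2 on all 9. The primary tumors of mice 8, 9 and 10 held 0, 2 and 3 cDC1 and are not among the 6. The list of migration and cytoskeleton genes holds these markers and was chosen with earlier results of these data known. Its count is therefore partly set by the label. Of its 20 genes 19 were measured, 7 were higher in all 9 sums and 1 lower, with a median log2 difference of 2.60. Beside Ccr7 and Fscn1 these were Cacnb3 (4.73), Marcksl1, a membrane-bound actin regulator (977 to 3967 CPM against 55.5 to 770 CPM), Samsn1, a signaling adaptor (622 to 2339 CPM against at most 215 CPM), Rgs1, a brake on chemokine receptors (log2 difference 3.21), and the motor protein Myo1g (2.60). The exception was the integrin gene Itgb7, known for homing to the gut (-3.23).

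Chemokines split by type. Ccl5, a chemokine that attracts T cells, ranged from 4121 to 21992 CPM in migDCs (median 10238) and from 25.8 to 1364 CPM in the other DCs, a log2 difference of 5.81 ± 1.85, with no overlap. In the highest sum, the primary tumor of mouse 9, 848 of 1331 Ccl5 UMIs were in 1 cell. T cells and NK cells also express Ccl5. The 11 listed T cell genes were at 0 in the migDC sums of all 4 lesions and summed to at most 128 CPM in primary tumors (5 of 11 genes at 0), and the 7 NK cell genes summed to at most 273 and 201 CPM. In the lesion-free sums of mice 3 and 6, T cell genes summed to 178 to 621 CPM and NK cell genes to 414 to 444 CPM. The part of such RNA in the Ccl5 level was not tested. Ccl22 ranged from 1329 to 7394 CPM (median 1536) against 0 to 903 CPM, a difference of 4.55 ± 2.58 that was smaller against cDC1 (2.70) than against cDC2 (6.98). In the lesion of mouse 31, the highest sum, 159 of 174 Ccl22 UMIs were in 1 cell. The membrane-bound chemokine gene Cxcl16 was also higher in all 9 sums (1.83). Ccl17 was not a gene of migDCs as a whole: it lay between 0 and 6926 CPM in them and between 0 and 4011 CPM in other DCs, and the difference was -1.79 against cDC1 and 4.55 against cDC2. Of 12 measured chemokine genes 3 were higher in all 9 sums and 2 lower, the interferon-induced Cxcl10 (-3.89) and the myeloid Ccl6 (-3.16). Over all genes 0.724% were higher and 2.74% lower.

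Genes for signals to T cells were higher in part. The maturation gene Cd83 ranged from 1092 to 2719 CPM in migDCs against 53.9 to 476 CPM (log2 difference 2.92), and Il12b reached 3824 CPM (median 1263) against at most 63.4 CPM (5.69, higher in 8 of 9 sums). All 90 Il12b UMIs in the lesion of mouse 31, the highest sum, were in 1 of 7 migDCs. In the lesion of mouse 36 all 17 were in 1 of 5. Tnfrsf4 (OX40) and Tnfrsf9 (4-1BB), better known as receptors on activated T cells, were higher in 7 and 8 of 9 sums (3.37 and 3.08). Cd40, the receptor for T cell help, was higher in 7 of 9 (1.26). Transcripts of the classical costimulators were scarce: Cd86 had 58 UMIs and Cd80 19 UMIs in all migDCs described, with differences of 0.45 and 0.47. Of 16 measured costimulation genes 2, Cd83 and the tetraspanin Cd63, were higher in all 9 sums and 0 lower (median 1.31). The shares over all genes were 0.724% and 2.74%.

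Inhibitory and regulatory genes were present in the same sums. Cd274, which encodes PD-L1, ranged from 133 to 560 CPM in migDCs against at most 112 CPM in other DCs, a log2 difference of 2.12 with no overlap. Its lowest levels rested on 1 UMI in the lesion of mouse 30 and 2 UMIs in that of mouse 32. Il4i1, a secreted amino acid oxidase that dampens T cells, reached 2728 CPM (median 1711) against at most 640 CPM (3.60), and Socs2, a suppressor of cytokine signaling, 973 CPM against at most 99.0 CPM (3.72). Both were higher in all 9 sums, but their ranges overlapped. Cd200, the ligand of an inhibitory myeloid receptor, was higher in 8 of 9 (3.07). Serpinb9, which protects cells from granzyme B, reached 1764 CPM against at most 111 CPM (4.54). Of 16 measured genes of the inhibitory list 3 were higher in all 9 sums and 0 lower (median 0.50), against 0.724% and 2.74% of all genes.

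In the list of NF-kB and survival genes 5 of 19 measured genes were higher in all 9 sums and 0 lower, with a median of 1.43. Over all genes 0.724% were higher and 2.74% lower. The 5 were the subunit Rel (266 to 1189 CPM against 16 to 190 CPM, log2 difference 2.80), Nfkb2 (1.63), the inhibitor Nfkbia (1.33) and the anti-apoptotic paralogs Bcl2a1b (1.86) and Bcl2a1d (1.62), whose close sequence may split reads between them. Relb, the partner of Nfkb2, was higher in 7 of 9 (2.86) and the apoptosis inhibitor Birc2 in 8 of 9 (3.23). Other genes with large differences were Cd63 (677 to 1458 CPM against at most 198 CPM, 4.44) and Tmem123, a surface mucin (1155 to 5736 CPM against 117 to 396 CPM, 3.85). A Cd63 pseudogene, Cd63-ps, was also higher in all 9 sums (4.37), and reads of such near-identical copies may be split between them. Ly75, the uptake receptor DEC-205, was higher in 8 of 9 (3.69).

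Of the 13 class II antigen presentation genes, all measured, 4 were lower in migDCs in all 9 sums and 0 higher, with a median of -2.20. Over all genes 2.74% were lower and 0.724% higher. H2-Ab1, the class II beta chain, ranged from 818 to 13233 CPM in migDCs (median 2931) and from 7851 to 32234 CPM in the other DCs (median 20462), a log2 difference of -2.57, lower in all 9 sums although the ranges overlapped. In the primary tumors of mice 9 and 38, 345 of 384 and 342 of 460 H2-Ab1 UMIs were in 1 cell each. In that of mouse 8, the highest migDC sum, the fullest cell held 109 of 517. H2-DMa, which loads peptide onto class II, ranged from 0 to 271 CPM against 741 to 2051 CPM (-4.33), and its partner H2-DMb1 was at -4.22. Class I was different, with 3 of 19 genes higher in all 9 and 2 lower (median 0.55). The 3 were B2m, the class I light chain (0.91), and the proteasome activators Psme1 (1.01) and Psme2 (1.83), and the 2 were the loading chaperones Calr (-2.33) and Pdia3 (-1.99).

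Of 25 measured genes in the list of uptake and pattern recognition receptors, which does not hold Ly75, 0 had a mean difference above 0 and 3 were lower in all 9 sums (median -2.01). Several genes of resident DCs were not seen at all in these migDCs. Tgfbi (a matrix protein), Cd209a (a lectin), Naaa (a lysosomal amidase) and Mgl2 (a lectin) had 0 of 332085 UMIs, and 444, 649, 387 and 462 CPM in the other DCs. Against a floor of 3 UMIs over all 9 sums they were at least 49.1-fold, 71.8-fold, 42.8-fold and 51.2-fold lower. Outside these sums, UMIs of Cd209a and Tgfbi were found in single migDCs of MET or Distal normal tissue. The complement gene Cfp and the leukotriene gene Alox5ap had 3 UMIs each, with 66.5 CPM at most for Cfp against 94.5 to 1242 CPM. Plac8, Nme1 and Cd68 completed the 8 lowest genes, with 41, 16 and 17 UMIs (-4.93, -4.71 and -4.56). Csf1r, the receptor for a macrophage growth factor, was lower in all 9 sums (-4.17), as was Lyz2 (-2.83). For marker lists of other cell types, the 20 UMIs were again counted over migDCs and other DCs together. They were reached by 14 of 16 monocyte and macrophage genes (0 higher, 2 lower, median -1.62), 2 of 11 T cell and 2 of 7 NK cell genes. The same held for 4 of 8 B cell, 2 of 8 neutrophil, 0 of 8 epithelial and tumor and 0 of 6 erythroid genes. In migDCs alone, 10 of the 16 monocyte and macrophage genes were at 0 in the 4 lesion sums and 6 in the 4 primary sums.

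Lists that mark the other DC types were set against those same cells. Of 15 measured cDC2 genes 4 were lower in all 9 sums and 0 higher (median -2.36), of 11 cDC1 genes 1 and 0 (median -1.39), and of 12 pDC genes 1 and 0 (median -1.61), where 2.74% of all genes were lower. The transcription factor Irf8, high in cDC1, was at a log2 difference of 1.31 (higher in 8 of 9), with 0.17 against cDC1 and 3.69 against cDC2. The DC growth factor receptor gene Flt3 was higher in 8 of 9 (1.19). Genes common to DCs did not move together, since Cst3 and the transcription factor Id2 were higher in all 9 sums (1.12 and 1.24) while the list median was -0.44.

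Of 32 type I interferon response genes 0 were higher and 5 lower in all 9 sums, with a median of -1.61 that was -1.83 against cDC2 and 0.26 against cDC1, where the medians over all genes were -0.58 and -0.34. The 5 were Ifitm3 (-3.81), Ly6e (-3.46), Ly6a (-4.46), Isg20 (-4.23) and Ifi205 (-3.54), and Ifitm3 reached at most 947 CPM against 1151 to 3786 CPM. Of 14 glycolysis genes 0 were higher and 1, Eno1 (-3.09), was lower, with a median of -1.71. Cell cycle genes were at a median of -0.73 with 0 of 18 on either side, near the median over all genes, and the proliferation gene Mki67 was detected in 0.855% of thinned migDCs. Of 17 cytokine and cytokine receptor genes 0 were higher and 1 lower (median -0.15), and of 16 interferon-gamma response genes 1 and 1 (median -0.78). Of 17 lysosomal genes 1 was higher and 4 lower (median -1.14), and of 18 immediate early and heat shock genes 0 and 1, the lower one being Fos (-3.70). Over all genes 0.724% were higher and 2.74% lower, so a count of 0 or 1 in lists this short says little.

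**Figure D3:**
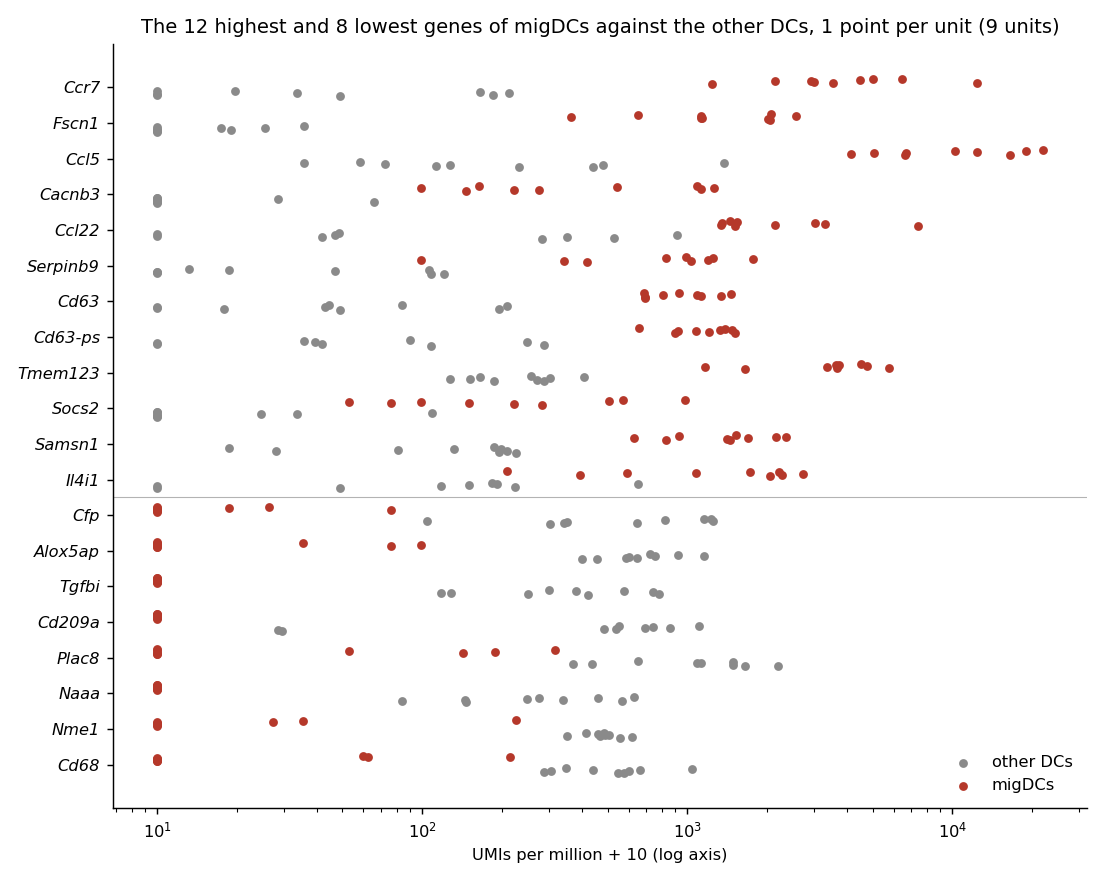
The 12 highest and 8 lowest genes of migDCs, plotted as CPM + 10 on a log axis in migDCs (red) and in the other DCs (gray), with a point for each of the 9 sums (units in the title). Fscn1 lies at 355 to 2566 CPM in migDCs and at most at 25.7 CPM in other DCs.

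**Figure D4:**
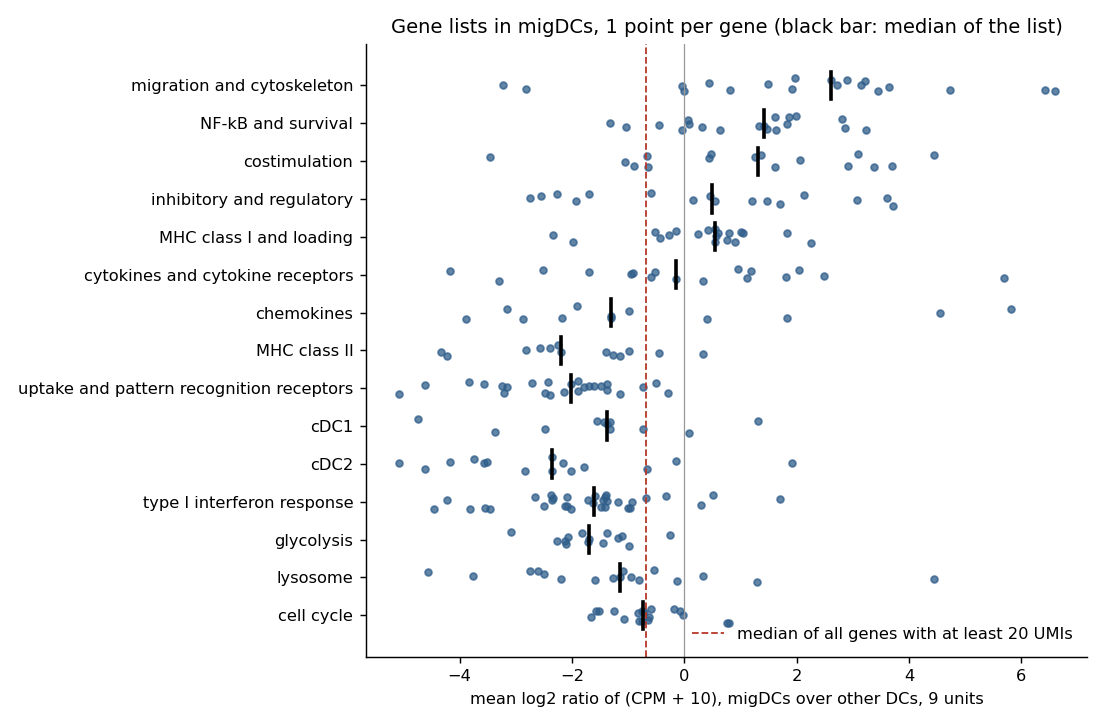
Mean log2 difference between migDCs and other DCs for each measured gene of the fixed lists, with list medians and, as a line, the median over all 8426 genes (-0.68). Migration genes have a median of 2.60 and class II genes one of -2.20.

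Whether migDCs differed between tissues was tested with edgeR on the UMI sums of 4 primary tumors against 4 lesions with at least 5 migDCs. No gene of 453 tested passed an adjusted p of 0.05 with edgeR (0%), 29 had an unadjusted p under 0.05, and DESeq2 also called 0 (37 at unadjusted p under 0.05). The median log2 fold change was 0.14, with 261 genes above 0 and 192 below. In simulated data with 200 changed genes at a log2 fold change of 2, this comparison recovered 64% of them. Depth and batch went with the tissue: all but 1 primary sum came from batch SB132, which held no lesion, primary sums had 39069 to 114561 UMIs, and lesion sums 7324 to 23534 UMIs. The dissociation program also differed between tumors and lungs. Neutrophil genes summed to 0 to 1092 CPM in lesion sums and 0 to 51.2 CPM in primary sums, with 5 and 6 of 8 genes at 0, and their part in the result was not tested.

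Genes that set migDCs apart from other DCs had fold changes of either sign between the tissues, with wide errors. In primary tumors against lesions the log2 fold change was 0.01 ± 0.58 (SE) for Ccr7, 0.17 ± 0.50 for Fscn1, -0.68 ± 0.56 for Ccl22 and -0.16 ± 0.55 for Il12b. Ccl5 was at 1.08 ± 0.49 (edgeR p = 0.041, adjusted p = 0.736), with 10238 to 21992 CPM in primary tumors and 4121 to 16521 CPM in lesions. Both maxima rested largely on 1 cell, with 848 of 1331 UMIs in the primary tumor of mouse 9 and 86 of 121 in the lesion of mouse 30. The 6 class II genes tested all lay above 0 with a median of 0.39, near the median over all genes, and 0 passed.

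Ccl17 had the smallest p. In lesions it stood at 2594 CPM in mouse 30, 6926 in mouse 31, 66.5 in mouse 32 and 3218 in mouse 36, and in primary tumors at 0 in mice 8 and 10, 183 in mouse 38 and 330 in mouse 9. In 3 of the 4 lesions the level lay above that of all primary tumors, and in 1 it lay among them. The log2 fold change was -4.40 ± 1.03 (SE; edgeR p = 0.00052, adjusted p = 0.236). It passed without a filter on low counts (-3.87, adjusted p = 0.000182) and without the lesion of mouse 32 (-4.85, adjusted p = 0.00878), both with edgeR. Over the alternatives that kept several primary tumors, its adjusted p with edgeR or DESeq2 ran from 0.000182 to 0.348. Batch SB128 held a single primary tumor sum, that of mouse 8 with 0 UMIs of Ccl17, beside lesions of mice 31, 32 and 36, so no fold within the batch is given.

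Few cells carried Ccl17. It had 361 UMIs in 22 of 117 migDCs, and 163 of them (45.2%) were in a single cell, the whole of the level in the lesion of mouse 31. The 46 UMIs in the lesion of mouse 36 were also in 1 cell, whereas 3 of 8 migDCs of mouse 30 and 4 of 7 migDCs in lesion-free lung of mouse 6 held UMIs. By class, Ccl17 was detected in 2 of 49 migDCs of primary tumors (4.08%), 11 of 43 of lesions (25.6%) and 9 of 25 of lesion-free lung (36.0%). Primary tumors had the deepest cells, and after thinning to 500 UMIs, in a separate draw, the shares were 4.08%, 23.3% and 20%. Averaged over all draws they were 3.14%, 21.4% and 23.7%. Pooled over migDCs the level was 157 CPM in Primary, 3865 in MET, 1459 in MET Core, 3291 in MET Invasive margin, 1778 in Relapse-free, 1023 in Distal normal tissue, 502 in Normal and 259 in the single migDC of Pre-MET. Of the 182 UMIs behind the MET value 163 were in the 1 cell of mouse 31, and all 46 behind the MET Invasive margin value in the 1 cell of mouse 36. In cDC1, Ccl17 stood at 8034 CPM in primary tumors, 5467 in lesions and 3158 in lesion-free lung, with UMIs in 3 of 10, 47 of 97 (48.5%) and 47 of 147 cells. In cDC2 it stood at 0, 107 and 27.0 CPM, with UMIs in 0 of 93, 9 of 263 and 3 of 143 cells. Like migDCs, cDC2 thus held less of it in primary tumors than in lesions, whereas cDC1 held more.

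Other genes at the head of the list did not pass either. They were picked by their small p, so a gap between the tissues was selected for. How many of the 453 tested genes do not overlap was not counted. Vamp8, a vesicle fusion protein, stood at 332, 420, 425 and 546 CPM in lesions and at 890, 1126, 1183 and 1421 CPM in primary tumors (log2 fold change 1.57 ± 0.49, edgeR adjusted p = 0.615). Selplg, the P-selectin ligand, stood at 332 to 935 CPM and 1173 to 1741 CPM (1.55 ± 0.50, edgeR adjusted p = 0.615). The lesions of mice 28 and 37, left out here with 4 and 3 migDCs, stood at 1184 and 2294 CPM of Selplg and so overlapped the primary tumors or lay above them. Atp5j, a mitochondrial ATP synthase subunit, stood at 0 to 350 CPM and 496 to 793 CPM (2.07 ± 0.69), and the pseudogene Gm15590 differed in the opposite direction (-2.0 ± 0.66).

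**Figure D5:**
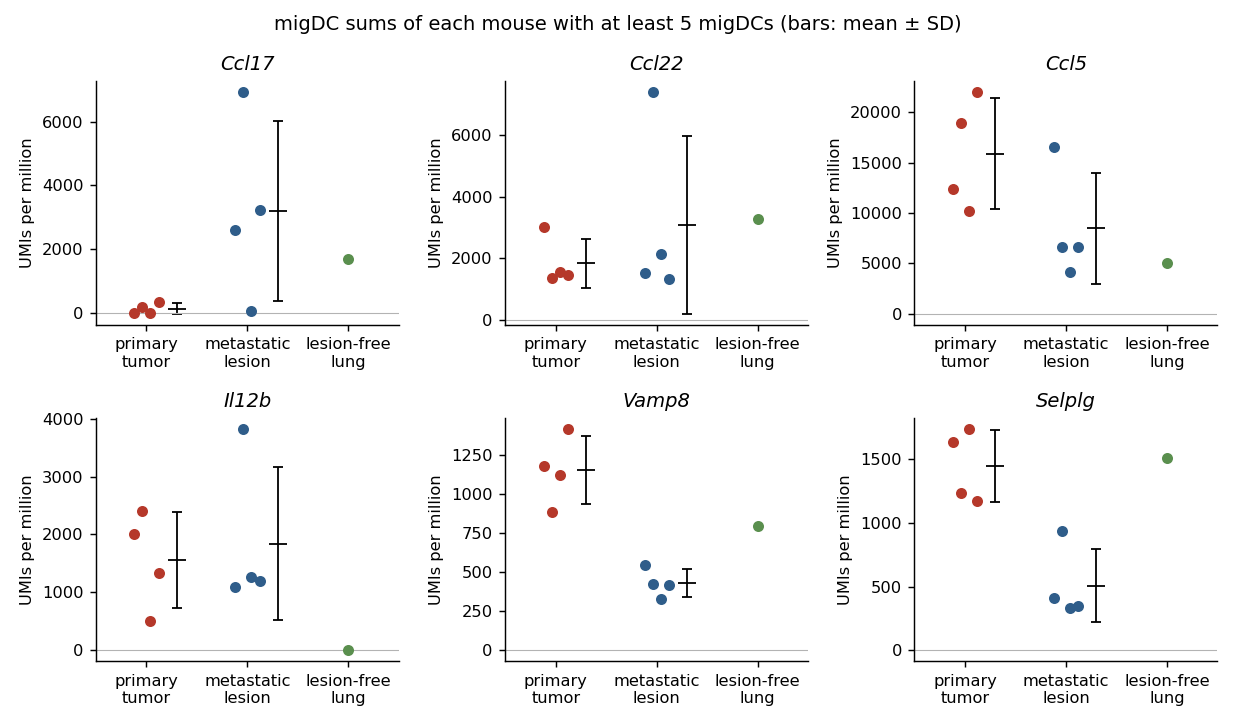
CPM of 6 genes in migDCs of primary tumors, lesions and lesion-free lung, with a point for each of the 9 sums and bars for the mean and SD. Ccl17 spans 66.5 to 6926 CPM in lesions and 0 to 330 CPM in primary tumors, and Vamp8, picked by its small p, 332 to 546 and 890 to 1421 CPM.

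The difference between tissues was also set against that in cDC2 of the same tissues, as an interaction. No gene of 1138 passed with edgeR (51 at unadjusted p under 0.05) and none with DESeq2 (72), and cDC2 alone gave 0 of 1809 genes (126 at unadjusted p under 0.05 with edgeR). The proteasome subunit gene Psmb6 and Il4i1 had the smallest p, with migDC minus cDC2 differences of -2.58 and -3.19 (both edgeR adjusted p = 0.921). Ccl17 was at 1.21 ± 0.98 (SE, edgeR p = 0.228) and did not pass. For Il4i1 the fold change was -0.53 in migDCs and 1.72 in cDC2. These fold changes come from a separate fit of each cell type. The interaction was fitted on both together with mouse and tissue as a block, so the values need not add up.

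Lesions and lesion-free lung could be compared only with a lower limit of 3 migDCs, which gave 7 lesion sums against 2 lesion-free sums. These were mouse 3, an uninjected Normal control, and mouse 6, a Relapse-free mouse sorted with and without the photoactivated gate, so the arm mixes 2 treatments and holds no lung of mice with metastases. No gene of 246 passed with edgeR (0%, 25 at unadjusted p under 0.05) and none with DESeq2 (29). In simulated data with 200 changed genes at a log2 fold change of 2, this comparison recovered only 14% of them. The lack of calls therefore does not show that the profiles were alike. The smallest adjusted p was shared by Ftl1-ps1, which GENCODE lists as protein coding, and Syngr2, a vesicle membrane protein, which stood at 821 to 3218 CPM in lesions and at 0 and 178 CPM in lesion-free lung (log2 fold change 4.08 ± 1.17, edgeR adjusted p = 0.162). Il12b stood at 1092, 3824, 1263 and 1189 CPM in the lesions of mice 30, 31, 32 and 36 and at 0 in those of mice 17, 28 and 37 and in both lesion-free sums (edgeR adjusted p = 0.191). All 90 Il12b UMIs in the lesion of mouse 31 and all 17 in that of mouse 36 were in 1 migDC each. Lesion-free migDCs outside these sums did hold Il12b, with 30 UMIs in the single migDC of mouse 10, 4 in mouse 17 and 2 in mouse 29. After thinning, Il12b was expected in 8.49% of 25 lesion-free migDCs and 17.6% of 43 lesion migDCs, averaged over all draws.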

How the data were processed

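The authors made 3' libraries from single sorted cells (SPID-seq), demultiplexed them with bcl2fastq (version 2.15.0.4 per the labels), mapped reads to mm10 with HISAT, left out reads with several mapping positions, counted UMIs in exons, kept cells with at least 500 UMIs and annotated them with MetaCell. Each deposited plate lists unnormalized UMI counts by gene for its wells, and the deposited cell table holds each well's annotation. No doublet caller was run.

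Cells were joined to labels by well identifier. A sample was 1 mouse in 1 status. Shares of migDCs were compared by two-sided permutation tests over samples (scipy 1.17.1), exact where a group had fewer than 10 samples and otherwise with 100000 resamples, with Benjamini-Hochberg adjustment over 8 comparisons. Samples of the same animal are paired by the mouse number in the labels, and the paired test flips signs within mice. UMI counts were summed over migDCs of 1 mouse and tissue class (primary tumor, lesion, lesion-free lung) and tested with edgeR 4.0.16 (quasi-likelihood test, TMM, filterByExpr, adjusted p of 0.05), with DESeq2 1.42.0 as an alternative. Lesion and lesion-free sums are compared over separate mice. The description against other DCs used CPM with a pseudocount of 10, and thinning drew 500 UMIs per cell. Code was tested on simulated data.

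Genes were named by a fixed rule: the 12 highest and 8 lowest mean log2 differences among genes with the same direction in every sum, the 5 smallest p per comparison and members of the lists. The members and the gene lists were chosen with earlier results of these data known. Alternatives covered normalization, count filters, limits on cells and UMIs, pseudocount, thinning, pairing, batch and leaving out each sample of groups of up to 5. P-values measure the spread between these mice.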

Additional observations from a re-analysis of the deposited data

Results flagged for a closer look

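In 6 of 35 groups of sums examined, 1 sum stood apart from the rest by its gap to the nearest. The cut-off is set at 1 in 20 for normally distributed values, which CPM of sparse counts need not be. The count of 6 was therefore not set against chance. For Ccr7 it was the lesion of mouse 32 at 12363 CPM, and for Ccl22 the lesion of mouse 31 at 7394 CPM, among 9 sums each. In the latter, 159 of 174 Ccl22 UMIs were in 1 cell. For Cfp it was the lesion of mouse 32 at 66.5 CPM, for Nme1 the primary tumor of mouse 9 at 215 CPM and for Cd68 the primary tumor of mouse 8 at 205 CPM, genes that were otherwise near 0 in migDCs. No migDC held more than 1 UMI of Cfp, and 1 migDC held 13 of the 25 UMIs of Nme1. Among the 4 lesions, Selplg stood apart in mouse 31 at 935 CPM.

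Among wells with a sorted cell but no annotation, a few held migDC markers. Of 32220 such wells, which had a median of 186 UMIs, 12 held UMIs of at least 2 of Ccr7, Fscn1 and Ccl22 (0.0372%). Of these 12, the 2 of MET and the 2 of Primary had median depths of 84591.5 and 133788.5 UMIs, far above the deepest annotated migDC (17103 UMIs). None of the 12 was counted as a migDC.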

How the results depend on the processing

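Against 61 genes higher and 231 lower than in other DCs in all 9 sums (of 8426), the counts were 21 and 62 of 1631 genes after thinning to 500 UMIs, 15 and 85 with at least 3 migDCs per sum, where 13 sums had to agree, and 140 and 518 with cells of at least 1000 UMIs, where 7 sums had to agree. Between primary tumors and lesions, 0 genes became 1 (Ccl17) without a filter on low counts and within batch SB128 (added after seeing the data, 1 primary tumor with 0 UMIs, so no support), and 0 to 1 when a sum was left out. A pseudocount of 1 moved the log2 differences of 10 named genes by more than their SD and turned none.

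As a percent of immune cells, the log2 measure gave 0.67 for MET minus Distal normal tissue and -0.16 for Distal normal tissue minus Normal, and neither passed. Leaving out each Normal sample, Distal normal tissue minus Normal lay between -0.401 and -0.14, Relapse-free minus Normal between -0.174 and 0.0869 (reversed without Normal mouse 3). Leaving out each sample, Primary minus Pre-MET lay between 2.77 and 3.22 (fewer samples allow no exact permutation p below 0.05). With the replicate block by mouse, Primary minus Pre-MET was 2.77. With cells of at least 1000 UMIs, MET Core minus MET Invasive margin reversed to -0.446.

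As a percent of DCs, Primary minus MET was 1.57 on the log2 measure and 14.3 to 17.7 percentage points leaving out each Primary sample, where the unadjusted permutation p was above 0.05; it had not passed after adjustment before. Primary minus Pre-MET lay between 24.2 and 28.4 leaving out each sample and at 24.4 in the replicate block. MET minus Distal normal tissue reversed to -0.171 in the replicate block. MET Core minus MET Invasive margin lay between -10.3 and 6.39 leaving out each margin sample (reversed without mouse 36), and Relapse-free minus Normal between -6.45 and 0.608 leaving out each Normal sample (reversed without Normal mouse 3). The causes were not tested. The block changed no other call.

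With at least 10 migDCs per sum no lesion was left, and a mouse block for lesions against lesion-free lung and cells of at least 1000 UMIs there gave no value.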
